A study of Homo sapiens with 6 samples.

Results

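Mature miR-210-3p was followed in Huh7 cells, a line derived from a human hepatocellular carcinoma, after exposure to metformin. The deposited table holds 1212 microarray probes, and 1 of them carries the miRBase accession of miR-210-3p, MIMAT0000267. The row was picked out by this accession and not by its values, though miR-210-3p was chosen with earlier results of these data known. Metformin cells (3 arrays) received 10 mM of the drug for 72 h, and control cells (3 arrays) were kept for the same 72 h without it. All cells were Huh7 in the same serum-supplemented medium, with no other agent and no oxygen level given in the labels. The arrays were hybridised in 1 colour, with Hy5 as the label of the total RNA.

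miR-210 is known as the microRNA most regularly induced when cells lack oxygen, through hypoxia-inducible factor 1, which binds its promoter. It represses the iron-sulfur cluster scaffold ISCU and the succinate dehydrogenase subunit SDHD, and so lowers mitochondrial respiration, and it represses GPD1L, a protein that affects the stability of the hypoxia factor. Metformin, a biguanide used in diabetes, inhibits complex I of the mitochondrial respiratory chain and activates the energy sensor AMPK. The level of miR-210-3p in metformin-treated cells therefore addresses whether the drug moves a microRNA that lies between oxygen sensing and respiration.

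MIR210 lies on the minus strand of chromosome 11, at chr11:568089-568198 in GRCh38.p14, inside the span of its long non-coding host gene MIR210HG (chr11:565657-568457). The gene stands alone, as the nearest other microRNA gene of the RefSeq table, MIR6743, is 358.7 kb away. The 2 arms and the hairpin follow as RefSeq gives them, 5′ to 3′. Capitals mark the seed (bases 2 to 8), which pairs with targets, in the arms, and the measured miR-210-3p in the hairpin.
hsa-miR-210-3p: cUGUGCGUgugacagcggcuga
hsa-miR-210-5p: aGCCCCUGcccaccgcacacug
mir-210 hairpin: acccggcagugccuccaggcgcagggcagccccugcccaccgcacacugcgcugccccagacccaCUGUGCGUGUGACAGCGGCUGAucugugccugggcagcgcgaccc

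miR-210-3p is read from positions 66 to 87 of the 110-base hairpin, at chr11:568112-568133. Its guanine and cytosine content of 63.6% is above the median of 52.2% over the 2370 mature microRNAs of the RefSeq table. None of the other 2368 (0) has the same seed, so miR-210-3p has no seed family in that table. The nearest is miR-147b-3p, which shares bases 2 to 7, in capitals here to show where the seeds part.
hsa-miR-147b-3p: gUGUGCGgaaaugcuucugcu

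The longest unbroken run that miR-210-3p shares with another mature microRNA is 8 bases, and 4 microRNAs have one that long. One of these is miR-122-5p, the abundant microRNA of hepatocytes, shown because hepatoma RNA can hold it in excess. The run, in capitals, spans bases 7 to 14 of miR-210-3p.
hsa-miR-122-5p: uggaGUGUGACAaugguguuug

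The probe sequences were not used here, and whether any signal of the miR-210-3p probe came from another microRNA was not tested.

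The processed arrays were alike in their medians, which lay between 22.8 and 24.1 intensity units. Each median was taken over the probes with a value, 1099 to 1209 per array. The lowest value on any array was 4.70. The labels do not state how background and scale were handled upstream, so an intensity is a relative level whose true zero is unknown. No probe other than that of miR-210-3p could be paired with a microRNA name, and the hepatocyte microRNAs that would check the cell line were therefore not read.

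Metformin cells had a slightly lower mean miR-210-3p intensity than control cells, and the difference did not pass the test. Its intensity was 182.4, 186.4 and 151.7 in metformin replicates 1, 2 and 3, against 193.7, 193.7 and 182.0 in control replicates 1, 2 and 3. The groups overlap, because metformin replicates 1 and 2 lie above control replicate 3, and only metformin replicate 3 stands below every control array. Groups without any overlap were found for 79 of the 1038 probes tested (7.61%). The mean was 173.5 ± 19.0 with metformin and 189.8 ± 6.75 in control (SD, n = 3 each). Over all 6 arrays the highest value was 1.28 times the lowest.

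**Figure D1:**
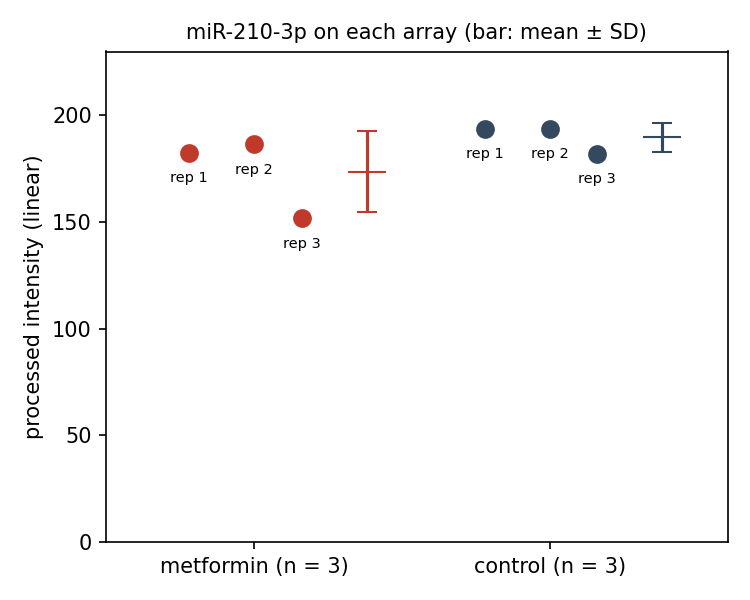
Processed intensity of miR-210-3p (linear axis from 0) on each of the 3 metformin and 3 control arrays, with the mean ± SD beside the points of each group. The 2 groups overlap between 182.0 and 186.4, and metformin replicate 3, at 151.7, is the lowest array.

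The fitted difference was -0.13 on the log2 scale (SE 0.22), metformin minus control, which corresponds to an intensity 8.93% lower. The limma adjusted p was 0.991 and the unadjusted p was 0.548 (two-sided). Of the 1038 probes measured on every array, limma called 0 (0%) at an adjusted p under 0.05, while 28 (2.7%) had an unadjusted p under 0.05. An exact permutation test of the 3 against 3 arrays gave a two-sided p of 0.3 for miR-210-3p, where 0.1 is the smallest that this design allows. Separate cultures are not mentioned in the labels, so the p-values may cover no more than technical spread between the samples.

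The 95% interval of the difference ran from -0.63 to 0.36 on the log2 scale, from an intensity 35.6% lower to one 28.7% higher with metformin. A 2-fold change of the miR-210-3p intensity in either direction lies outside this interval, and a 1.5-fold decrease lies within it. The interval bounds the processed intensity and need not bound the abundance of the microRNA. The limma interval is wider than the miR-210-3p arrays alone would give, because limma draws each probe's variance towards that of the other probes. The spread of miR-210-3p within groups was 0.12 on the log2 scale, against a median of 0.22 for the 66 other probes whose mean intensity lies within 2-fold of it. Of these 66 probes, 11 had a smaller spread. With its own spread alone, the SE was 0.10 and the interval ran from -0.41 to 0.14, which still includes 0.

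On the deposited scale, the size of the difference rested on 1 array. Without metformin replicate 3 the log2 difference of miR-210-3p was -0.04, against values between -0.12 and -0.19 when any other array was left out. It stayed below 0 in all 6 of these fits, with limma adjusted p-values of 0.902 or higher.

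The probe of miR-210-3p was among the brighter ones. The geometric mean over the 6 arrays was 181.0, the 71st highest of the 1038 probes tested. Signal also depends on how well each probe binds, so this place does not rank miR-210-3p by abundance. Relative to the median of its own array, miR-210-3p stood at 7.86, 8.18 and 6.29 times that median in metformin replicates 1, 2 and 3, and at 8.44, 8.17 and 7.74 times in control replicates 1, 2 and 3. Metformin replicate 3 is again the lowest, and the groups again overlap. These ratios averaged 7.44 ± 1.01 with metformin and 8.12 ± 0.35 in control (SD, n = 3 each).

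Among bright probes, the direction of miR-210-3p was the less common one. Of the 103 other probes in the brightest 10% of those tested, 87 had a higher and 16 a lower mean with metformin, with a median log2 difference of 0.13. The difference of miR-210-3p was lower than that of 97 of these probes and higher than that of 6. Over all other 1037 probes the split was nearly even, with 549 higher and 488 lower and a median of 0.03, and 306 had a difference below that of miR-210-3p. Centring the arrays on the median log2 intensity of the bright probes moves every difference by -0.17, which is more than their lean of 0.13. These counts describe this one comparison and were not tested, since probes on the same arrays share the arrays' scaling.

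**Figure D2:**
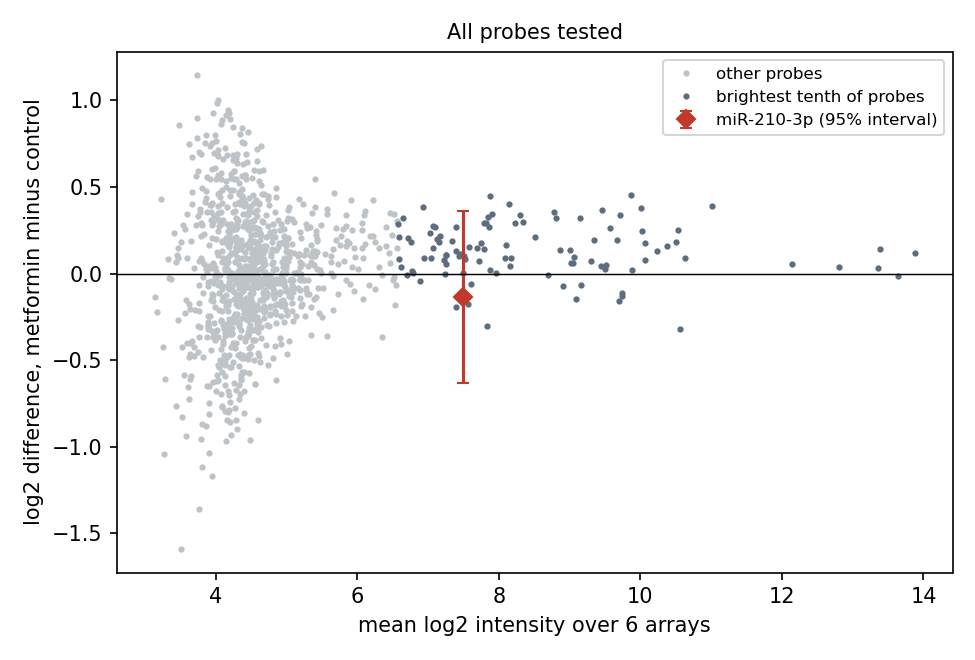
Log2 difference, metformin minus control, against mean log2 intensity over the 6 arrays for the 1038 probes tested. Dark points are the brightest 10% of probes and the diamond is miR-210-3p with its 95% interval. The diamond, at -0.13, lies under most of the dark points, while its interval includes 0 and most of their values.

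The level of the bright probes varied from array to array, and miR-210-3p did not move in step with it. The level is the median deviation of the brightest 10% of probes from their 6-array means on the log2 scale. It was -0.05, 0.22 and 0.03 in metformin replicates 1, 2 and 3, and -0.05, -0.20 and 0.09 in control replicates 1, 2 and 3. The deviation of miR-210-3p from its own mean was 0.01, 0.04 and -0.26 in metformin replicates 1, 2 and 3, and 0.10, 0.10 and 0.01 in control replicates 1, 2 and 3. Metformin replicate 2, the array with the brightest bright probes, had a middling miR-210-3p value, and control replicate 2, with the dimmest, shared the highest. After subtraction of this level on each array, the miR-210-3p deviation averaged -0.13 ± 0.18 with metformin and 0.12 ± 0.19 in control (SD, n = 3 each). It was then lowest in metformin replicate 3, at -0.28. The groups overlap, as metformin replicate 1, at 0.06, lies above control replicate 3, at -0.08.

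With each array centred instead on the median log2 intensity of the bright probes, the log2 difference of miR-210-3p was -0.31 (95% interval -0.90 to 0.29, limma adjusted p = 0.980). This is 2.28 times the reported size. That centring moved the median of all probes by -0.17. The miR-210-3p values centred in this way were -0.47, -0.89 and -0.80 in metformin replicates 1, 2 and 3, and -0.32, -0.25 and -0.66 in control replicates 1, 2 and 3. With 1 array left out on this scale the difference lay between -0.43 and -0.22, at -0.27 without metformin replicate 3 and -0.22 without metformin replicate 2. The groups overlap here as well, as control replicate 3 lies below metformin replicate 1. After quantile normalization the difference of miR-210-3p was -0.22 (limma adjusted p = 0.999). The exact permutation p was 0.2 under either scaling.

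**Figure D3:**
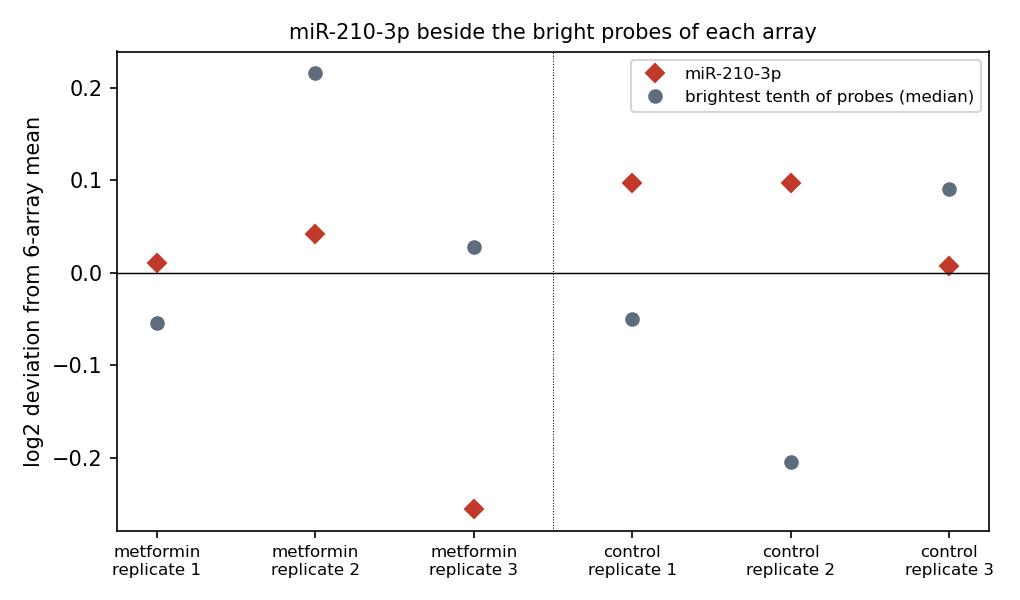
Log2 deviation from the 6-array mean, for miR-210-3p (diamonds) and for the median of the brightest 10% of probes (circles), on each array. The diamonds range from -0.26 in metformin replicate 3 to 0.10 in control replicates 1 and 2, and the circles from -0.20 in control replicate 2 to 0.22 in metformin replicate 2.

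By order of deposit, miR-210-3p averaged 173.4 on the last 3 arrays and 189.9 on the first 3, with overlapping values. The labels name no batch, and whether this order reflects one is not known. In the first 3 arrays miR-210-3p was at 182.4 with metformin (1 array) and at 193.7 on both control arrays. In the last 3 arrays it was at 186.4 and 151.7 with metformin and at 182.0 in control (1 array). Within the first 3 arrays the log2 difference of miR-210-3p was -0.09, within the last 3 it was -0.11, and with this order as a block it was -0.10. The within-set values are based on a single array in 1 group and show only that the sign was the same.

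**Figure D4:**
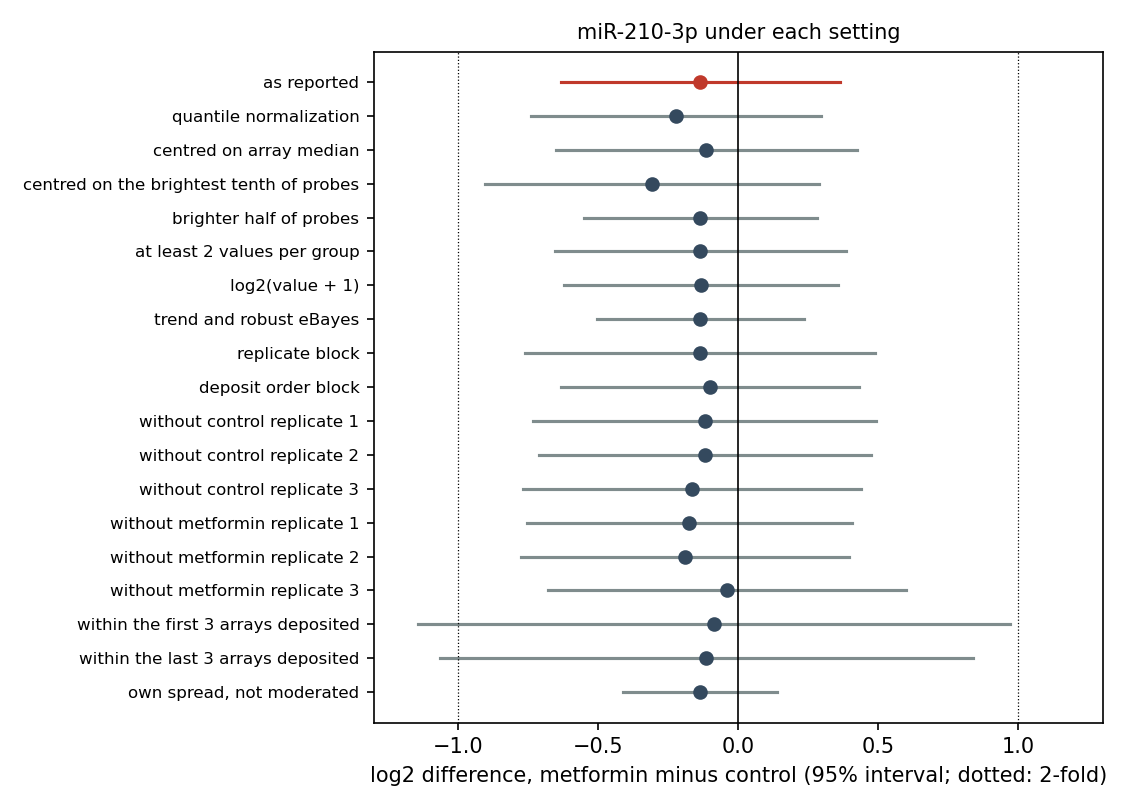
Log2 difference of miR-210-3p, metformin minus control, with its 95% interval (horizontal lines), as reported and under 18 other settings. Dotted lines mark 2-fold. All 18 points lie below 0, 5 of them in settings that cannot move this difference, and all intervals include 0; only the 2 fits of 3 arrays each reach past the line for a 2-fold decrease.

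Probes whose pattern over the 6 arrays was most like that of miR-210-3p were sought by Pearson's r of the log2 intensities. The labels do not state how the arrays were scaled, so a scaling shared by them may enter r. The highest of 1037 values of r over 6 arrays was picked, so r is given as a description. Without centring, the most alike of all was MIMAT0003299 with r = 0.98. With arrays centred on their medians its r was 0.97, and another probe reached 0.99. MIMAT0003299 had intensities of 24.9, 24.1 and 15.9 in metformin replicates 1, 2 and 3, and 29.3, 27.6 and 22.9 in control replicates 1, 2 and 3. The value of control replicate 1 stands as 29.34177062 in the deposited data, while the others of this probe have 1 decimal. Why they differ was not tested. MIMAT0003299 too was lowest in metformin replicate 3, but its values lie near the median of the arrays. Its log2 difference was -0.32 (limma adjusted p = 0.991).

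Among the 66 probes of similar intensity no such close match was found. The pick was from fewer values of r here, so the highest r of each set cannot be compared directly. Without centring, the highest r with miR-210-3p was 0.64, for MIMAT0000691. Its r was 0.68 with arrays centred on their medians, where another probe reached 0.75. MIMAT0000691 had intensities of 243.6, 159.7 and 147.3 in metformin replicates 1, 2 and 3, and 217.5, 202.9 and 187.5 in control replicates 1, 2 and 3. It shared the low value in metformin replicate 3, but its highest value was in metformin replicate 1. Its log2 difference was -0.18 (limma adjusted p = 0.991). The median r over the 66 probes was -0.17 without centring and 0.06 with it, so its sign depends on that choice. The files pair neither accession with a microRNA name.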

How the data were processed

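The deposited value table holds linear intensities of 6 one-colour arrays, processed by the authors before deposit, as inferred from their nearly equal medians and the lack of values at or below 0; per the labels only the dye and kit are known. Intensities were converted to log2 without a pseudocount. Of the 1212 probes, 174 lacked a value on at least 1 array, and 1038 were fitted with limma 3.58.1 in R 4.3.3 (lmFit and eBayes, two-sided, Benjamini-Hochberg over all probes). The procedure was tested on simulated data. The simulated noise was independent between probes, with no shift shared within an array and no spread set as small as that of miR-210-3p. Precision is limited by 3 arrays per group. Plots used matplotlib 3.10.9.

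The reference tables hold 0 rows with a miRBase mature accession, so the planned lists of hypoxia-induced, HIF-regulating and mitochondrial microRNAs and the cell type markers could not be matched to probes and were not analysed here. Probes alike in pattern were named as the highest Pearson r among all probes and among those within 1 log2 unit of mean intensity; 3 of each were planned, and only the first is printed, since accessions without names say little. The member and the lists were chosen with earlier results of these data known.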

Additional observations from a re-analysis of the deposited data

How the results depend on the processing

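Of 15 planned and 3 later settings, 5 cannot move the log2 difference of miR-210-3p, only its error. In the other 13 it stayed below 0. In all 18 it was short of the threshold, with limma adjusted p-values from 0.902 to 0.999. It ranged from -0.31, centred on the brightest 10% of probes, to -0.04, without metformin replicate 3, and lay between -0.19 and -0.04 when 1 array was left out (between -0.43 and -0.22 with centring on the brightest 10%). The interval excluded a 2-fold change in 16 of the 18, and the other 2 were the fits of 3 arrays. Fits with 1 array left out after centring on the brightest 10% are not among the 18, and some of their intervals include a 2-fold decrease. Their lower log2 bounds were -1.02, -0.95 and -1.14 without control replicates 1, 2 and 3. Without metformin replicates 1, 2 and 3 they were -1.11, -0.87 and -1.01. All 18 gave 0 probes past the threshold, with 10 to 50 at an unadjusted p under 0.05. The exact permutation test was run on the deposited scale, with a pseudocount of 1, after quantile normalization, and centred on array medians or the brightest 10%. Its p lay between 0.2 and 0.6 there, and it was not run in the remaining settings. With the replicate block the difference was -0.13 and the limma adjusted p 0.993; the block was not used, because deviations of same-numbered arrays correlated with r of 0.01, -0.27 and -0.02. Fits within 3 arrays, the fit without moderation and leaving out arrays after centring were chosen after seeing the data. Lists of microRNAs and their alternatives were not run, for want of names. Signal over background could not be judged.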
